A study of Mus musculus with 6 samples.

Results

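The genes described here are 48 neighbours of Lgi1 on mouse chromosome 19, lying on both sides of it from Pcgf5 to Crtac1. They were listed by name, and all 48 had at least 1 probe set annotated to that symbol alone among the 19938 genes measured; where a gene had more than 1, the brightest on average over the 6 arrays stands for it. Their RNA was compared between 3 samples of Lgi1 knock-out and 3 samples of Lgi1 wild-type immortalized neural precursor-like cells, 1 Affymetrix Mouse Gene 1.0 ST array per sample. The knock-out cells carry a homozygous deletion of Lgi1. Both genotypes are of strain C57BL/6J, their cells were derived from embryo brain at embryonic day 13.5, and the immortalized cells grew in RPMI with little serum. The labels call the 3 samples of a genotype biological replicates. They are silent on the extent of the deletion and on the genetic background of the deleted allele. The means of immortalization and the number of embryos and lines are not given either. P-values therefore reflect only how far these samples scatter, and that scatter may be technical. The number of arrays limits the precision.

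The product of Lgi1 is secreted by neurons and bridges ADAM-family receptors across synapses; mutations of it cause epilepsy. Its neighbours are not a pathway. They are genes of unrelated function that share a stretch of chromosome, among them chromatin regulators, enzymes of retinoic acid breakdown, parts of the exocyst and of the RNA exosome, and genes used mainly by lymphocytes, retina or muscle. The comparison asks whether the genes on either side of a deleted gene differ in RNA level between the genotypes.

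Most neighbours were lower in knock-out cells. Of the 48 genes, 29 fell, 3 rose and 16 did not pass (limma, Benjamini-Hochberg adjusted p under 0.05 over all 19938 genes, of which 31.6% were called, 17.6% as lower and 14.0% as higher). Exoc6, a subunit of the exocyst that tethers secretory vesicles, had the largest measured fall (4.82-fold), followed by the fatty acid receptor Ffar4, the Polycomb ring finger protein gene Pcgf5 and the translational regulator Cpeb3. Ffar4 and Cpeb3 were at background in knock-out cells, so their falls may be larger than measured and the order is not certain. Entpd1, which encodes the ectonucleotidase CD39, had the largest rise (2.12-fold), and Marveld1 and Plce1 rose as well. The median log2 fold change of the 48 genes was −0.34 in knock-out minus wild-type cells, against −0.011 over all other genes. The 3 knock-out arrays did not overlap the 3 wild-type arrays for 35 of the 48 genes, 31 of them lower and 4 higher in knock-out cells, beside 42.3% of all genes. Because the genes were chosen with results of these data known, these counts describe the stretch and carry no test. In RNA of whole cultures, fewer cells that express a gene and less RNA per cell cannot be told apart.

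**Figure D1:**
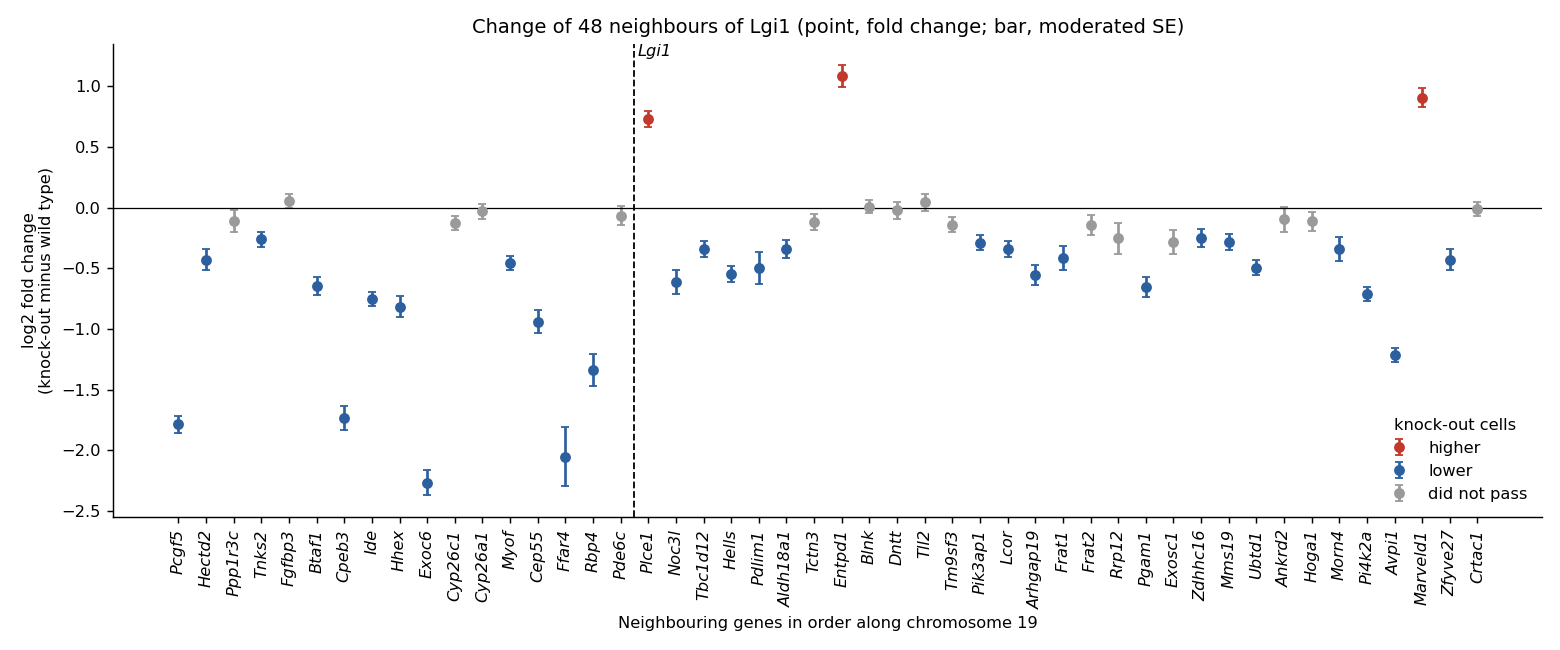
Log2 fold change (knock-out minus wild type) of the 48 neighbours in their order along chromosome 19; points are fold changes of 3 against 3 arrays, bars the moderated standard errors, and the dashed line marks the place of Lgi1. The 29 falls lie on both sides of Lgi1 and the 3 rises, of Plce1, Entpd1 and Marveld1, after it.

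The promoters of the genes at either end of this range are shown to let a reader compare the sequences upstream of neighbours that moved in opposite directions. They are the 3 largest falls and the 2 largest rises among called members with a single start in the RefSeq table (build GRCm38.p6), which held 54 starts for 45 of the 48 genes; each runs from 250 bases before to 50 bases after the start, 5′ to 3′, with every CG dinucleotide in capitals.
Exoc6 (chr19:37550168-37550467, plus strand): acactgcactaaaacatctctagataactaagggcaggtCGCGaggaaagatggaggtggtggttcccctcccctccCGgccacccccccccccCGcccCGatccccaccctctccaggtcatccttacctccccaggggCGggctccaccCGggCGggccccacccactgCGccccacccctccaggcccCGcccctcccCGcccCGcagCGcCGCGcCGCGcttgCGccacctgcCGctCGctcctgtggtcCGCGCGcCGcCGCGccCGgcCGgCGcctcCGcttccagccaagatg
Ffar4 (chr19:38096829-38097128, plus strand): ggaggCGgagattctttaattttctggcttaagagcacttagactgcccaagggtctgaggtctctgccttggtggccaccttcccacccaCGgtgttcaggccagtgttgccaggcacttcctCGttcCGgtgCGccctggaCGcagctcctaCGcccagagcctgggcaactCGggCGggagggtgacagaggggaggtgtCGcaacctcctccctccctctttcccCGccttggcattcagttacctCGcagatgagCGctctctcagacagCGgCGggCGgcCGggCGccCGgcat
Avpi1 (chr19:42128944-42129243, minus strand): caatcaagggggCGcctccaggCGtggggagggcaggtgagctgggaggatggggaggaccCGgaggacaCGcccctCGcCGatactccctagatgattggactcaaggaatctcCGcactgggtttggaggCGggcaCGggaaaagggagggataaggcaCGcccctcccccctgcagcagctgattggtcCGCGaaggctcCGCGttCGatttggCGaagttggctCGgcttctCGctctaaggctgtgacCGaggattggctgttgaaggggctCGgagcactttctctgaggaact
Marveld1 (chr19:42147139-42147438, plus strand): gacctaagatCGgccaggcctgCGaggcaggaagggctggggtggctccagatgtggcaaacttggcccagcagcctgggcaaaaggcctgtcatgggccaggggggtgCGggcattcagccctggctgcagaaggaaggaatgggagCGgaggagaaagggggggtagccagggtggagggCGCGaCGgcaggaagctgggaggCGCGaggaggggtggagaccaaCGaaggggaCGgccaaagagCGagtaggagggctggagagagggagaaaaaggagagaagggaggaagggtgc
Plce1 (chr19:38523947-38524246, plus strand): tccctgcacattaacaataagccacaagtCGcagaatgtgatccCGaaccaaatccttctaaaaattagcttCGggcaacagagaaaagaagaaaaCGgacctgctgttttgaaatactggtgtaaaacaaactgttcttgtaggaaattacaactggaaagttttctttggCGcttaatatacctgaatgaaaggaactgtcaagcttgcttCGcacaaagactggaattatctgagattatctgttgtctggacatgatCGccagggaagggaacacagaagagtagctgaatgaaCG

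The sequences upstream of the 3 genes that fell held 30 CG dinucleotides in Exoc6, 19 in Ffar4 and 20 in Avpi1, against 12 in Marveld1 and 8 in Plce1, which rose. Entpd1, the largest rise, has 2 starts, with 23 and 10, and so was not printed. Over all 54 member starts the median was 23.5 CG dinucleotides and over all 32851 starts of the table, non-coding genes included, it was 7. The median was 25 over 35 starts of members that fell and 24 over 15 starts of those that did not pass. Over 4 starts of those that rose it was 11. Counts ran from 0 to 49 in members that fell and from 8 to 23 in those that rose. The letters GGGCGG, sought on both strands and themselves holding a CG, stood in 28 of the 54 member promoters (51.9%) and in 35.7% of all promoters. Among the 5 printed they were found in Exoc6 and Ffar4. TATAAA, also sought on both strands, was found in 6 member promoters (11.1%) and in 13.6% of all, and in none of the 5 printed. These matches are descriptions of letters and say nothing of a factor's binding.

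Lgi1 itself could not serve as a check of the genotypes. It read 4.53, 4.57 and 4.54 on the knock-out arrays, against 4.61, 4.75 and 4.94 on the wild-type arrays. The log2 difference of −0.22 (SE 0.084) did not pass (limma adjusted p = 0.0747), but it passed in a fit that blocks on replicate number (adjusted p = 0.0463). It also passed in limma with arrays centred on their medians (adjusted p = 0.0392) and with an intensity trend and robust variance (0.0456). With the chromosome 19 median subtracted it did not (−0.13, limma adjusted p = 0.3). Both genotypes lay under 5.68, the 95th percentile of 1194 receptor genes of the nose (olfactory and vomeronasal), taken as a measure of background. The call depended on single arrays (adjusted p = 0.0183 without wild-type replicate 1 and 0.226 without wild-type replicate 3).

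Against the same background level, 33 of the 48 neighbours lay above it in both genotypes, 3 in wild-type cells alone, none in knock-out cells alone and 12 in neither. Of the 33, 24 fell, 3 rose and 6 did not pass. The 3 above it in wild-type cells alone were Cpeb3, Ffar4 and Frat1, all of which fell. A gene above background in wild-type cells alone has the lower mean in knock-out cells by construction, though not necessarily a call. The 12 at background in both genotypes were Ppp1r3c, Hhex, Cyp26c1, Cyp26a1, Pde6c, Blnk, Dntt, Tll2, Pik3ap1, Frat2, Ankrd2 and Crtac1; 10 of them did not pass. For these dim genes the lack of a call does not show that they did not change.

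The genotypes differed beyond this stretch. Median log2 values were 6.38 to 6.41 on the knock-out arrays and 6.36 to 6.38 on the wild-type arrays. Xist averaged 12.44 in knock-out and 4.64 in wild-type cells, and the Y-linked gene Eif2s3y averaged 4.67 in knock-out and 10.19 in wild-type cells. Y-linked Uty (4.82 against 10.03) and Kdm5d (5.24 against 9.03) went the same way. In these genes the knock-out cells had the female pattern and the wild-type cells the male pattern. Effects of sex and of genotype cannot be told apart in this design. The mean level of 10 neural precursor markers was 7.44 to 7.49 on the knock-out arrays and 8.43 to 8.51 on the wild-type arrays. Of these markers 4 fell, among them Sox2 (−5.92) and Pax6 (−1.69), which lay at background in knock-out cells. Sox9 rose (+2.56) and 5 did not pass. The median log2 fold change of the 10 markers was only −0.070. The mean level of 10 fibroblast and meningeal markers was 9.98 to 10.06 on the knock-out arrays and 7.33 to 7.41 on the wild-type arrays, with 9 risen and none at background in knock-out cells. The part of these differences in the changes of the neighbours was not tested.

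The neighbours are described by role below. Of all 48, 60.4% fell, and differences between roles were not tested. Among regulators of chromatin and transcription all 6 neighbours fell. Pcgf5, a ring finger subunit of a variant Polycomb repressive complex 1, had log2 values of 7.55, 7.37 and 7.51 on the knock-out arrays, against 9.29, 9.32 and 9.19 on the wild-type arrays (log2 fold change −1.79, SE 0.070, limma adjusted p = 2.13e-08). The knock-out arrays were tightly grouped and far below the wild-type arrays. Btaf1, an ATPase that removes the TATA-binding protein from DNA, had 9.57, 9.61 and 9.45 in knock-out cells and 10.11, 10.31 and 10.16 in wild-type cells (−0.65, SE 0.075, adjusted p = 8.70e-05). Hells, a chromatin remodeller needed for DNA methylation, had 10.47, 10.37 and 10.35 in knock-out cells and 10.97, 11.00 and 10.86 in wild-type cells (−0.55, SE 0.066, adjusted p = 1.05e-04). In both genes every knock-out array was below every wild-type array. Hhex, a homeobox factor of endoderm, blood and vessels, gave 4.59, 4.77 and 4.72 in knock-out cells and 5.33, 5.63 and 5.57 in wild-type cells (adjusted p = 4.48e-05). Its arrays did not overlap, but both genotypes were at background, so no fold is given. The nuclear receptor corepressor Lcor (−0.34) and Mms19, which delivers iron-sulphur clusters to DNA repair enzymes (−0.28), fell by less.

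The partners of Pcgf5 elsewhere in the genome were not called lower. Beside this and the later partner lists stand the shares of all genes, 17.6% lower and 14.0% higher. Among genes with a mean over all arrays above the median of all genes, 28.8% were lower and 21.7% higher. No partner list was tested against these shares. Of 7 further genes of Polycomb repressive complex 1, none was lower in limma (2 at an unadjusted p under 0.05) and 1 was higher, the ubiquitin ligase Rnf2 (+0.48, SE 0.060, adjusted p = 1.38e-04). Of the paralogues, Pcgf3 and Pcgf6 had log2 fold changes of −0.28 and −0.21 with adjusted p of 0.0618 and 0.0692 and stayed short of the threshold. Pcgf6 also lies on chromosome 19, outside the stretch. Of 2 measured further genes of iron-sulphur targeting, with which Mms19 acts, Ciapin1 was lower (−0.35, adjusted p = 0.0220).

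Genes of membrane traffic and membrane lipids gave 6 falls and 1 rise among 8. Exoc6 had log2 values of 7.04, 7.41 and 7.22 on the knock-out arrays, against 9.48, 9.64 and 9.36 on the wild-type arrays (−2.27, SE 0.102, adjusted p = 6.00e-08). The gap between the genotypes was several times the spread within either. Pi4k2a, a kinase that makes phosphatidylinositol 4-phosphate on Golgi and endosomal membranes, had 8.62, 8.67 and 8.72 in knock-out cells and 9.40, 9.35 and 9.40 in wild-type cells (−0.71, SE 0.059, adjusted p = 7.05e-06). Marveld1, a protein with a MARVEL membrane domain, moved the other way, with 9.73, 9.71 and 9.76 in knock-out cells and 8.92, 8.66 and 8.89 in wild-type cells (+0.91, SE 0.078, adjusted p = 8.96e-06). No array of either genotype entered the range of the other in these 3 genes. Smaller falls were those of Myof, a ferlin of membrane repair (−0.46), Zfyve27, or protrudin, of the endoplasmic reticulum (−0.43), Tbc1d12, with a Rab GTPase-activating domain (−0.34), and the palmitoyltransferase Zdhhc16 (−0.25, adjusted p = 0.0227). Zdhhc16 lost its call without knock-out replicate 1 (−0.18, adjusted p = 0.0786) and without wild-type replicate 1, 2 or 3 (adjusted p = 0.0576, 0.0537 and 0.0565). Tm9sf3 did not pass (−0.14, adjusted p = 0.119).

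The fall of Exoc6 stood beside smaller changes of the other exocyst genes. Of 8 measured exocyst genes elsewhere, 3 were lower (37.5%) and 1 was higher, where 28.8% of all genes above the median level were lower. The paralogue Exoc6b fell by 0.39 on the log2 scale (adjusted p = 0.0010), and Exoc5 rose (+0.60, SE 0.070, adjusted p = 9.01e-05). Of the 5 other ferlin genes set beside Myof, Dysf, the muscle ferlin dysferlin, was lower (−0.44, adjusted p = 0.0026) and the other 4 did not pass.

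RNA-binding and ribosome genes gave 2 falls among 4. Cpeb3, which binds polyadenylation elements in neuronal mRNAs, had 5.69, 5.27 and 5.43 in knock-out cells, against 7.20, 7.14 and 7.26 in wild-type cells (−1.73, SE 0.100, adjusted p = 3.93e-07). Since its knock-out mean lay under the background level, the fall is at least 2.86-fold when set against that level. Noc3l, a nucleolar factor of large ribosomal subunit assembly, had 8.84, 8.94 and 8.87 in knock-out cells and 9.36, 9.74 and 9.38 in wild-type cells (−0.61, SE 0.099, adjusted p = 8.77e-04). Both genes separated the genotypes on every array, although wild-type replicate 2 stood above its group in Noc3l. Exosc1, a cap subunit of the RNA exosome, had a difference of −0.28 (adjusted p = 0.0519; 0.0164 when blocked on replicate number, and 0.00371 without wild-type replicate 3, where the difference was −0.40). Rrp12, a factor of ribosome export, had −0.25 (adjusted p = 0.186; 0.0491 with the block). Of 9 further RNA exosome genes 3 were lower and 1 was higher, with Exosc9 (−0.40) and Exosc2 (−0.36) the largest. Of 9 further genes of ribosomal RNA processing 1 passed, Noc4l (−0.19, adjusted p = 0.0322).

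The 3 neighbours of vitamin A biology behaved differently. Rbp4, the carrier of retinol in blood, had log2 values of 8.81, 8.71 and 8.95 on the knock-out arrays, against 10.16, 9.87 and 10.47 on the wild-type arrays (−1.34, SE 0.131, adjusted p = 2.38e-05). The wild-type arrays spread more widely than the knock-out arrays and still did not meet them. Cyp26a1 and Cyp26c1 are adjoining paralogues whose enzymes hydroxylate retinoic acid for removal. Cyp26c1 gave 4.92, 4.92 and 4.97 in knock-out cells and 5.09, 5.03 and 5.06 in wild-type cells (adjusted p = 0.151), and Cyp26a1 gave 4.35, 4.22 and 4.33 in knock-out cells and 4.32, 4.35 and 4.31 in wild-type cells (adjusted p = 0.789). Both were at background in both genotypes. Of 12 measured retinoid genes elsewhere 6 were higher and 1 was lower, led by the retinoic acid binding protein Crabp2 (+3.05) and the receptor Rarb (+2.99), so the fall of Rbp4 ran against the direction of most of that list's calls. The 1 lower gene also lies on chromosome 19, outside the stretch. The paralogue Cyp26b1 did not pass (+0.10, adjusted p = 0.259).

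Among genes of division, cytoskeleton and cilium 4 of 6 fell, beside 60.4% of all 48 neighbours. Cep55, which organizes the midbody in the last step of cell division, had 9.17, 9.11 and 8.96 in knock-out cells and 10.23, 9.90 and 9.94 in wild-type cells (−0.94, SE 0.095, adjusted p = 3.18e-05). Arhgap19, a GTPase-activating protein, had 8.64, 8.74 and 8.46 in knock-out cells and 9.24, 9.14 and 9.11 in wild-type cells (−0.55, SE 0.080, adjusted p = 4.01e-04). The genotypes were separate in both. Pdlim1, an adaptor of actin bundles, fell (−0.49, adjusted p = 0.0158), and its second probe set gave a similar value (−0.43); without wild-type replicate 1 the call was lost (adjusted p = 0.0565). Morn4 also fell (−0.34, adjusted p = 0.0240), but its arrays overlapped, and the call was lost without knock-out replicate 1 or 2 (adjusted p = 0.0894 and 0.0886) and without wild-type replicate 1 or 3 (0.0844 and 0.0736). Tctn3, of the ciliary transition zone (−0.12), and Ankrd2, of muscle (−0.096), did not pass. Of 10 further midbody and cytokinesis genes 4 were lower and none higher (1 higher at an unadjusted p under 0.05 in limma), led by Cit, or citron kinase (−0.75), and Kif23 (−0.48). Of 9 further transition zone genes 2 were higher and 1 lower, with Tmem231 (+1.31) and Mks1 (+0.59) the largest.

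Metabolic genes gave 3 falls among 5. Ide, the insulin-degrading protease, had 10.73, 10.73 and 10.71 in knock-out cells and 11.41, 11.54 and 11.46 in wild-type cells (−0.75, SE 0.061, adjusted p = 5.81e-06). Pgam1, the glycolytic phosphoglycerate mutase, had 11.79, 11.51 and 11.63 in knock-out cells and 12.20, 12.33 and 12.37 in wild-type cells (−0.65, SE 0.084, adjusted p = 1.73e-04). Of its 3 probe sets 2 hold identical values on all arrays, at a log2 fold change of −0.70, and the annotation does not say which of the 3 lies at the gene on chromosome 19, so signal from near-identical copies cannot be told apart. Aldh18a1, which makes the precursor of proline and ornithine, fell by 0.34 on the log2 scale (adjusted p = 0.0059), while the glycogen-targeting subunit Ppp1r3c and the mitochondrial enzyme Hoga1 had −0.11 each (adjusted p = 0.455 and 0.370). Of 4 measured further genes of proline and ornithine metabolism, Oat, ornithine aminotransferase, was higher (+0.84, adjusted p = 2.90e-06) and the other 3 did not pass.

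Genes of Wnt signalling were Tnks2, a tankyrase that marks axin for destruction, and the adjoining paralogues Frat1 and Frat2, which bind GSK3. Tnks2 fell by 0.26 on the log2 scale (adjusted p = 0.0086). Frat1 had 5.20, 5.34 and 5.31 in knock-out cells and 5.81, 5.83 and 5.46 in wild-type cells (−0.42, SE 0.098, adjusted p = 0.0082); the wild-type mean exceeded the background level by only 0.020. Frat2 had 4.61, 4.71 and 4.80 in knock-out cells and 4.95, 4.89 and 4.71 in wild-type cells (−0.14, adjusted p = 0.236), both at background. Of 7 further genes of the axin destruction complex and tankyrase, 2 were lower and 1 was higher, with Axin2 (+0.47) and Apc (−0.43) the largest, and the paralogue Tnks did not pass (+0.069, adjusted p = 0.538).

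Of 4 genes best known from lymphocytes, Entpd1 rose, Pik3ap1 fell and 2 did not pass. Entpd1, whose enzyme removes phosphates from extracellular ATP and ADP and which vessels and glia also use, had 7.91, 7.84 and 7.85 on the knock-out arrays, against 6.87, 6.58 and 6.90 on the wild-type arrays (+1.09, SE 0.087, adjusted p = 5.52e-06). The adaptor Pik3ap1 (adjusted p = 0.0050), the B cell linker Blnk (adjusted p = 0.929) and Dntt, which adds untemplated nucleotides to antigen receptor genes (adjusted p = 0.882), were at background in both genotypes. Of 10 lymphocyte markers 9 were analysed, among them Ptprc, Pax5, Cd79a and Cd3e, and all 9 were at background in both genotypes too, with a mean level of 4.88 to 4.90 on the knock-out arrays and 4.87 to 4.93 on the wild-type arrays.

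The remaining 9 neighbours act in signalling, outside the cell or in other ways, and 4 fell while 1 rose. Ffar4, a receptor for long-chain fatty acids, had 5.40, 5.41 and 5.24 in knock-out cells and 7.39, 6.78 and 8.03 in wild-type cells (−2.05, SE 0.241, adjusted p = 9.32e-05). Its wild-type arrays had the widest spread of any neighbour (SD 0.627, n = 3). Taken from their mean, the fall is at least 3.29-fold against the background level. Avpi1, a gene induced by vasopressin in kidney cells, had 7.80, 7.77 and 7.79 in knock-out cells and 9.01, 8.95 and 9.03 in wild-type cells (−1.21, SE 0.058, adjusted p = 9.18e-08). Plce1, a phospholipase C driven by Ras-family GTPases, had 9.03, 9.14 and 9.09 in knock-out cells and 8.33, 8.30 and 8.44 in wild-type cells (+0.73, SE 0.066, adjusted p = 1.25e-05). Avpi1 and Plce1 moved in opposite directions, each with no overlap between the genotypes. The ubiquitin-domain gene Ubtd1 (−0.49) and the ubiquitin ligase Hectd2 (−0.43) fell. Fgfbp3, a secreted carrier of fibroblast growth factors (+0.058), Pde6c, the cone phosphodiesterase (−0.064), the tolloid-like protease Tll2 (+0.045) and Crtac1, a matrix protein of cartilage and brain (−0.011), did not pass.

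**Figure D2:**
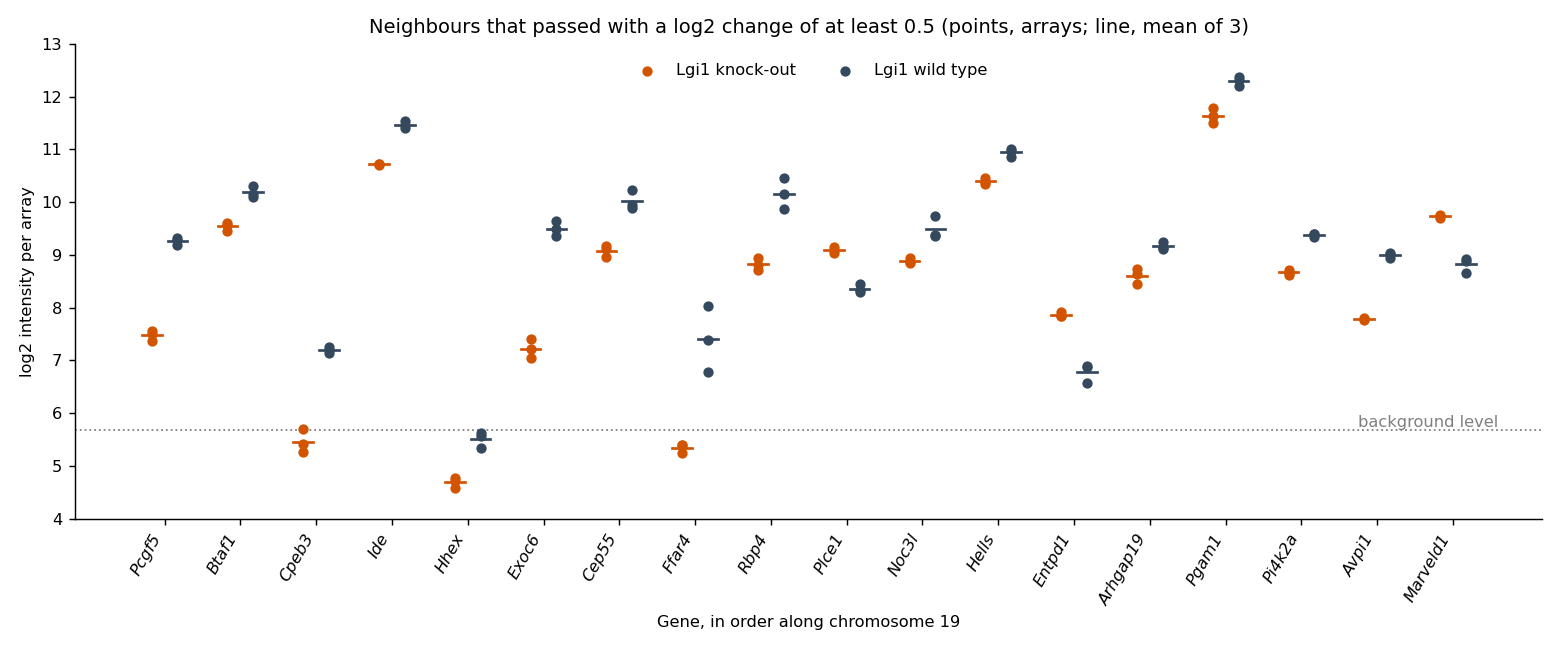
Log2 intensity on each array for the 18 neighbours that passed with a log2 fold change of at least 0.5 in size, in chromosome order; points are single arrays, short lines the mean of 3, and the dotted line the background level of 5.68. Knock-out arrays lie below wild-type arrays in 15 genes and above them in Plce1, Entpd1 and Marveld1.

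By size, 15 neighbours fell and 3 rose with a log2 fold change of at least 0.5, where 6.39% of all genes fell and 6.62% rose by that rule. The other 14 falls ran from −0.25 to −0.49. On the side before Lgi1, from Pcgf5 to Pde6c, 12 of 17 genes fell and none rose (limma; none was higher at an unadjusted p under 0.05 either), with a median log2 fold change of −0.65. On the side after it, from Plce1 to Crtac1, 17 of 31 fell and 3 rose, with a median of −0.28. The difference between the sides was not tested. Genes right beside one another could move in opposite directions, as Avpi1 (−1.21) and Marveld1 (+0.91) did. Among the nearest neighbours Rbp4 (−1.34) lay 3 measured genes before Lgi1 and Plce1 (+0.73) 3 measured genes after it.

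The stretch held 26 further measured genes, Lgi1 among them, that were not in the list. Of these, 7 fell and none rose in limma, nor was any higher at an unadjusted p under 0.05, with a median log2 fold change of −0.0021. They include 12 Cyp2c genes, drug- and lipid-metabolizing enzymes of the liver, none of which passed in limma (1 was lower and none higher at an unadjusted p under 0.05). Among genes with a mean over all arrays above the median of all genes, 24 of 31 neighbours fell, with a median of −0.43, and 6 of 7 unlisted genes fell, with a median of −0.33. Of all genes at that level 28.8% fell, and of those on chromosome 19 outside the list 49.7% fell. The difference between neighbours and unlisted genes was not tested. Zfp518a (−0.73, adjusted p = 5.59e-05), the mitochondrial ubiquitin ligase Marchf5 (−0.68, adjusted p = 1.32e-04), Fra10ac1 (−0.47), the cyclin Ccnj (−0.33), Slc35g1 (−0.31) and the mitotic kinesin Kif11 (−0.30) were the largest falls of unlisted genes. Listed and unlisted genes together gave 36 falls and 3 rises among 74 genes from Pcgf5 to Crtac1.

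**Figure D3:**
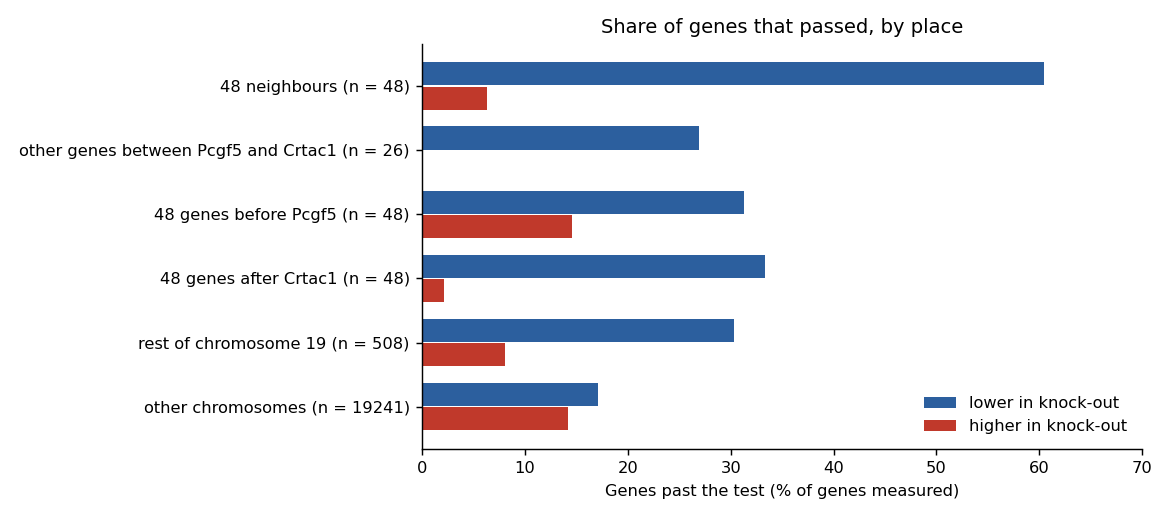
Share of measured genes that passed the test as lower or higher in knock-out cells, by place: the 48 neighbours, the 26 other genes of the stretch, 48 genes on either side of it, the rest of chromosome 19 and all other chromosomes. Falls made up 60.4% of the neighbours and 26.9% of the other genes of the stretch over genes of any level. Among genes above the median level, which the bars do not show, these shares were 77.4% of 31 and 85.7% of 7. At that level 28.8% of all genes fell, and 49.7% of chromosome 19 genes outside the list.

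Falls outnumbered rises along the rest of chromosome 19 as well. Of the 48 genes before Pcgf5, 15 fell and 7 rose, and of the 48 after Crtac1, 16 fell and 1 rose. In the rest of the chromosome 154 of 508 genes fell and 41 rose. On other chromosomes the shares were 17.1% lower and 14.2% higher. Among genes whose mean over all arrays exceeded the median of all genes, chromosome 19 had the lowest median log2 fold change of 20 chromosomes (−0.25 over 353 genes) and chromosome 14 the highest (+0.41). Chromosomes 9 (−0.195), X (−0.195) and 18 (−0.181) came next. Falls made up 52.1% of these genes on chromosome 19, 48.5% on 9, 45.8% on X and 46.9% on 18. Of the 48 neighbours 31 were above that level. When the chromosome 19 median of such genes was subtracted from them, a setting chosen after the data were seen, 19 neighbours were called lower in place of 29 and the count of rises was still 3. The 10 calls lost were those of Hectd2, Tnks2, Tbc1d12, Pdlim1, Aldh18a1, Lcor, Zdhhc16, Mms19, Morn4 and Zfyve27. Of the 19 falls still called, 5 were of dimmer genes that the subtraction does not touch (Cpeb3, Hhex, Ffar4, Pik3ap1 and Frat1). Of the 15 larger falls 12 were of brighter genes, and these 12 kept their calls.

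**Figure D4:**
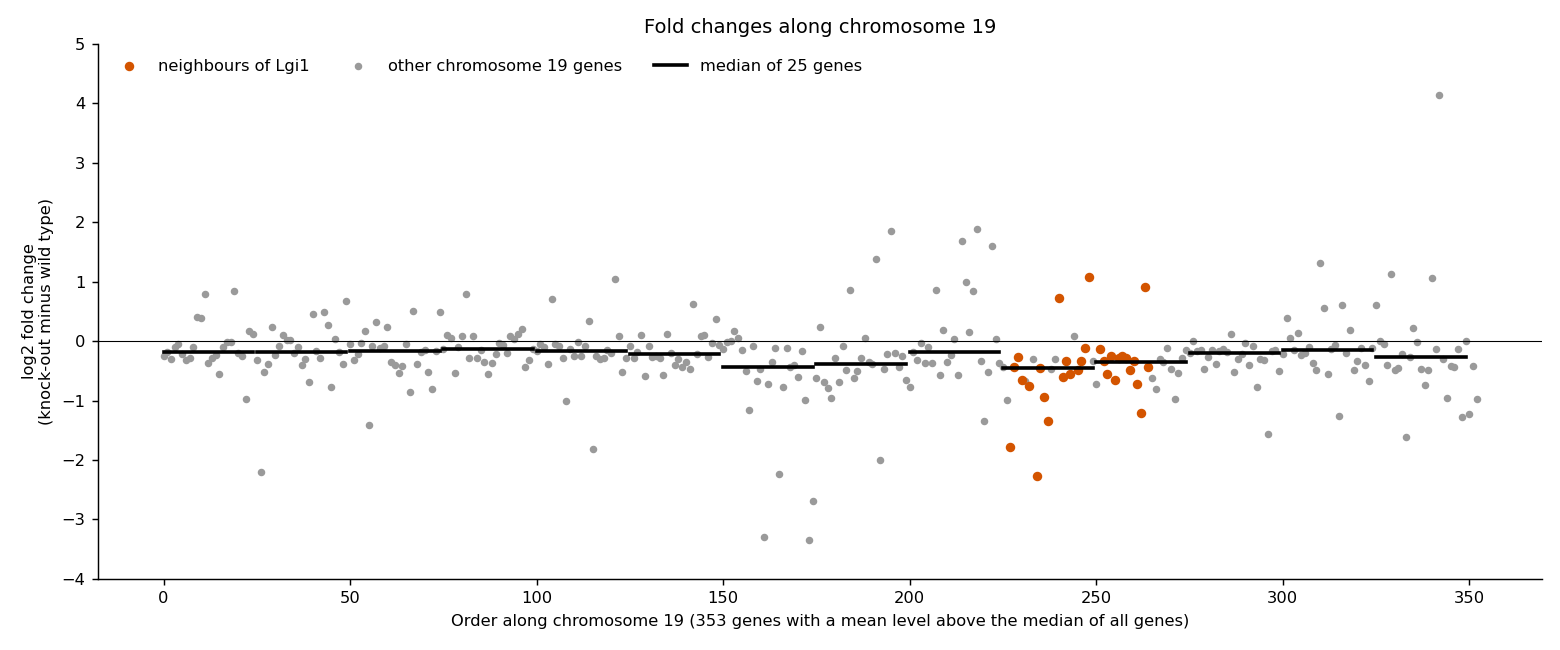
Log2 fold change (knock-out minus wild type) of the 353 chromosome 19 genes with a mean level above the median of all genes, in chromosome order; orange points are the 31 neighbours above that level, grey points other genes, and black bars medians of 25 consecutive genes. All bars lie below 0, from −0.13 to −0.46, and the lowest is that from Rpp30 to Ccnj, which holds 17 of the neighbours.

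In windows of 25 consecutive such genes along chromosome 19, every one of the 14 medians was below 0. The window from Rpp30 to Ccnj, around Lgi1, had the lowest median (−0.46), with 21 falls and 2 rises, and 17 of its genes were listed neighbours. The next lowest was a window without a listed neighbour, from Cpsf7 to Gcnt1 (−0.43, 15 falls and no rise). The window after that one, from Rfk to Rcl1, also without a listed neighbour, had −0.38 (18 falls and 4 rises). The window from Zfp518a to Bloc1s2, with 14 neighbours, had −0.35 (19 falls and 1 rise). A window median close to that around Lgi1 was therefore found elsewhere on the chromosome, and the stretch was not tested against it.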

How the data were processed

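Total RNA was extracted with Trizol and labelled cDNA was hybridized to Affymetrix Mouse Gene 1.0 ST arrays, per the labels' protocols. The authors' deposited table holds 1 log2 value per probe set and array (scale judged from the range). The submitters' processing notes name Partek without a version; the sources used here do not state the background correction, normalization, summarization or filters. Quartiles were nearly equal across arrays. Values were used as deposited.

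Of 35556 probe sets, 21789 had 1 symbol, 1621 several and 12146 none in GEO's platform annotation. All 19938 genes were fitted in R 4.3.3 with limma 3.58.1 (lmFit, eBayes; 4 residual degrees of freedom before moderation) and adjusted by Benjamini-Hochberg. Gene order, for 19919 genes, came from the RefSeq table of GRCm38.p6; as the sources do not name the build of the array annotation, the printed promoters are the only coordinates given.

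The genes, lists and tests were chosen with earlier results of these data known. Array values are given for neighbours that passed with a log2 change of at least 0.5 and for Cyp26a1, Cyp26c1, Frat1 and Frat2; up to 6 unlisted genes and 2 genes of each partner list are named by size of change, and paralogues named beside them were added after their values were seen. Genotypes and replicate numbers came from the titles. Same-number arrays of the 2 genotypes deviated together (r = 0.187 to 0.288 across genes, which are not independent replicates). Other pairs had −0.185 to −0.0047, but deviations from a group mean sum to 0, which pushes them below 0. By the rule used, every such pair over 0.1, a block on the numbers was run as an alternative. The labels name no shared batch, so whether the numbers pair the samples is not known. Other alternatives varied normalization, filters, probe sets, variance model, threshold, the chromosome 19 median and the arrays included. On simulated data of this comparison (19938 genes, 50 per size) the test found 10% of log2 changes of 0.25, 72% of 0.5, 98% of 1 and 100% of 2, with 7 unchanged genes called. Far fewer genes were changed in the simulation than the 31.6% called in the data. The Benjamini-Hochberg cut-off is stricter when fewer genes change, so the shares found for small changes may be too low for these data.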

Additional observations from a re-analysis of the deposited data

How the results depend on the processing

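The 3 rises were called under every alternative run. The 29 falls numbered 25 to 32 under the alternatives other than a fold threshold and the 2 subtractions of a chromosome median, and 26 to 29 with 1 array left out. They numbered 26 at an adjusted p under 0.01, 15 with a log2 change of at least 0.5 required in addition, 26 with the median of all chromosome 19 genes (−0.089) subtracted and 19 with the median of its brighter genes subtracted from those genes. Over all genes the threshold on size left 2595 of 6296 calls. Fewer genes pass these thresholds by construction. With the replicate number as a block 31 falls and 3 rises were called, as were 7000 genes in all, and no neighbour's call was lost; besides Lgi1, Exosc1 and Rrp12 no call changed.

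Direction turned in 8 neighbours, none of which had passed. With the chromosome 19 median subtracted Cyp26a1 had 0.059, Pde6c 0.025, Dntt 0.068 and Crtac1 0.078. With that of brighter genes Tctn3 had 0.14 and Tm9sf3 0.11. With arrays centred on their medians Blnk had −0.036 and Tll2 −0.0007. With 1 array left out, the values ran from −0.057 to 0.010 for Cyp26a1, from −0.089 to 0.025 for Dntt, from −0.022 to 0.082 for Tll2 and from −0.025 to 0.0014 for Crtac1, and turned without knock-out replicate 2 in Cyp26a1, Dntt and Crtac1, without knock-out replicate 1 in Dntt and without wild-type replicate 3 in Tll2. Centring also brought Cyp26c1 (adjusted p = 0.0468) and Tm9sf3 (0.0441) past the threshold, and with the chromosome 19 median subtracted Tnks2 (0.0619), Zdhhc16 (0.127) and Morn4 (0.0856) did not pass. The causes were not tested. Signal near background limits what can be seen in 12 of the 48 genes.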
